A study of Solanum tuberosum and Solanum acaule with 12 samples.

Results

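In Solanum acaule, an allotetraploid wild potato, 167 gene models had one assembled transcript highest in the control shoots and a different one highest in the frozen shoots. They were picked out of 13801 gene models that could be scored, which is 1.21% of them. A gene model entered the scoring when at least 2 transcripts were placed on it alone and the levels of these transcripts summed to 5 or more in each of 5 libraries, control replicates 1 and 2 and freezing replicates 1, 2 and 3. It was counted as switching when both controls shared the same highest transcript, the 3 frozen libraries shared the same highest transcript, and these transcripts differed. In the following, the control transcript is the one that led in the controls and the freezing transcript the one that led after freezing. The gene models were thus selected on their transcript levels in these 5 libraries, and those levels are described here without a test.

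RNA from shoot explants was sequenced as stranded mRNA libraries, with 3 biological replicates under control conditions, long days, and 3 after freezing. For freezing, the explants stood in a growth chamber whose temperature was lowered by 2 °C per hour, starting at 22 °C and ending at -4 °C. Both groups are S. acaule with no other treatment given, and the labels do not say whether replicates came from separate plants, cultures or days. The second species of the series, the cultivar Atlantic, has its own table, normalized separately and with unrelated identifiers, and was not used here. The deposited level of a transcript has the form of TPM (an abundance corrected for transcript length and library size) divided by a library factor, so levels of transcripts of one gene model can be compared per length. Sequencing depth is unknown. In tissue RNA, fewer cells of a type and less RNA per cell cannot be told apart.

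Most plant genes with introns give more than one mature RNA, through alternative splicing, alternative transcription starts and alternative ends. In Arabidopsis, cooling changes the splicing of many genes within hours, among them genes of splicing factors and of the circadian clock, and some of the products carry early stop codons and are degraded. A change of the major transcript can therefore alter the protein made, or how much of the RNA is translated, without any change in the summed level of the gene. In an assembly of a tetraploid, transcripts of one gene model may also be sequence variants of the gene rather than splice forms. None of the gene models or assembly loci had a name in the reference table (0 matched), and the files used here hold no sequences. Whether a switch concerns splicing, an end, or a variant, and what the genes do, was therefore not analysed, nor could the shoot label be checked against marker genes.

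Control replicate 3 was unlike the other 5 libraries. On log2 levels of gene models it correlated at 0.675 to 0.714 with the other libraries, which correlated at 0.87 to 0.948 with each other. Chromosome names of the assembly end in 1 or 2, called sets here, and set 2 held 65.7% of the signal placed on the sets in control replicate 3, against 52.7% to 53.4% in the others. The selection did not use this library. Its values are given beside the others for many of the named gene models, but not for all.

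Most switches were exchanges of rank with a narrow lead in the weakest of the 5 libraries. The lead of the higher over the lower transcript of the pair was taken in each of the 5 libraries as a log2 ratio of level + 1, and the smallest of the 5 leads was called the margin. The median margin was 0.10 on the log2 scale, and 83 gene models had a margin under 0.1. A margin of 0.5 was reached by 10, and a margin of 1, a 2-fold lead of level + 1 in each library, by 0. The margin is by definition the smallest lead, and leads in single libraries were wider. The median log2 ratio of the freezing over the control transcript was -0.33 and -0.32 in control replicates 1 and 2. In freezing replicates 1 to 3 it was 0.37, 0.45 and 0.45. The added 1 lowers the lead at low levels. On the levels themselves, g21844, described below, led by more than 2-fold in all 5 libraries. The difference in log2 ratio between freezing and control, called the switch size, had a median of 0.87 and ran from 0.10 to 4.38. It was at least 1 in 74 gene models and at least 2 in 18. In 149 of the 167 it was at least 2 times the SD of the ratio within groups, a comparison that the selection itself favours.

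As a share of the gene model's summed level, the control transcript had a median of 45.0% in the controls and 29.1% after freezing (medians over 167 gene models of the group means). For the freezing transcript the medians were 31.2% in the controls and 44.3% after freezing. The control transcript held over 50 percent of the sum in both controls in 47 gene models, and the freezing transcript did so in all 3 frozen libraries in 36. In 28 gene models both held, so that one transcript had the majority of the sum in the controls and another after freezing. With only 2 transcripts the highest always holds over 50 percent, so the 8 switching gene models with 2 transcripts are among the 28 by construction.

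The count depended on the libraries. With one library left out, which by construction loosens the rule, it was 374 without control replicate 1, 424 without control replicate 2, 476 without freezing replicate 1, 240 without freezing replicate 2 and 275 without freezing replicate 3. When control replicate 3 also had to show the same highest transcript as the other controls and a sum of 5 or more, 39 of the 167 were left.

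**Figure D1:**
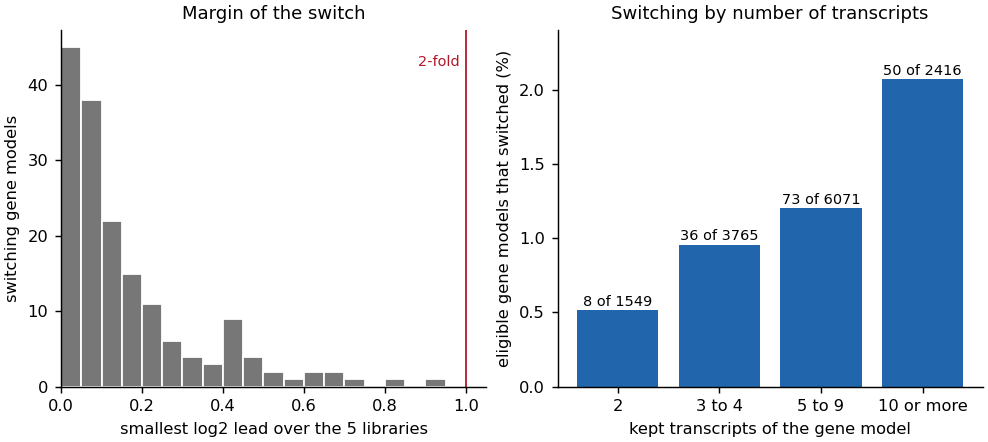
Left, number of switching gene models (y axis) by margin (x axis, smallest log2 lead over the 5 libraries, in steps of 0.05). The line marks a 2-fold lead of level + 1. Right, percent of eligible gene models that switched (y axis) by the number of transcripts kept per gene model (x axis), with counts above the bars. No margin reached 1, and the share ran from 0.516% with 2 transcripts to 2.07% with 10 or more.

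Gene models with many transcripts were more often among the switching ones. Of 1549 eligible gene models with 2 transcripts 8 switched (0.516%), of 3765 with 3 to 4 transcripts 36 (0.956%), of 6071 with 5 to 9 transcripts 73 (1.20%) and of 2416 with 10 or more transcripts 50 (2.07%). The share with the same highest transcript in all 5 libraries fell from 91.7% with 2 transcripts to 60.9% with 10 or more. The switching gene models had a median of 7 transcripts, from 2 to 30, against 5 over all eligible gene models. The 3029 gene models whose highest transcript varied or tied within a group also had a median of 7, so this is not particular to switching. The summed level of the switching gene models had a median of 15.7 and ran from 6.27 to 1062. The median was 18.2 over all eligible gene models and 16.4 over those 3029. By summed level, 1.25% switched at 5 to 10, 1.51% at 10 to 20, 0.986% at 20 to 50 and 0.918% at 50 or more.

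Switching gene models lay on all 12 chromosomes and on both sets, with 74 on set 1 and 93 on set 2. Set 1 held 44.3% of them and 46.4% of the eligible gene models. Per chromosome and set the share ran from 0.220% (1 of 455 on chromosome 7 of set 1) to 1.94% (10 of 516 on chromosome 8 of set 2). These shares are descriptions and were not tested.

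In 141 of the 167 (84.4%) both transcripts of the pair carried the same assembly number, that is, came from one assembled locus, and 26 paired transcripts of different loci. For the 2 highest transcripts of the gene models that kept the same highest transcript in all 5 libraries, here called stable, the share from one locus was 82.3% of 10605. The placed spans of both transcripts were identical in 45 pairs (26.9%, against 21.8% among the stable), shared one end in 63 (37.7% against 30.6%), and differed at both ends in 59 (35.3% against 47.6%). Spans did not overlap at all in 8 pairs (4.79% against 4.98%). Among the 3029 gene models whose highest transcript varied or tied within a group, 12.7% had identical spans, 37.2% shared one end and 50.1% differed at both ends. A pair with identical spans differs inside the placed span or in sequence, which the placement table does not show. The freezing transcript had the longer span in 66 pairs and the control transcript in 56. Both transcripts had a placement score of 3 or less in 86 pairs (51.5% against 42.3% among the stable). The score runs from 1 to 40, its meaning is not stated, and whether a low score marks an uncertain placement is not known.

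The largest margin belonged to gene model g21844, at 31634924 to 31638036 on chromosome 2 of set 1 (coordinates as deposited, build not given in the sources used here). Its control transcript AcauleEVm015654t6 was at 7.68 and 14.6 in control replicates 1 and 2 and at 2.85, 3.03 and 2.44 in freezing replicates 1 to 3. The freezing transcript AcauleEVm015654t9 was at 2.17 and 2.08 in the same controls and at 6.36, 7.33 and 6.14 after freezing. Neither transcript overlapped between these groups, and they went in opposite directions over the same placed span, so that the summed level differed little (log2 fold change -0.35). In control replicate 3 both were low, at 0.482 and 1.045, and another transcript was highest.

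Gene model g9537, at 24379498 to 24385749 on chromosome 12 of set 1, had the next largest margin, 0.83. AcauleEVm022308t2 stood at 8.54 and 8.49 in the controls and at 2.51, 2.10 and 2.58 after freezing. AcauleEVm010624t14 stood at 4.35 and 2.57 in the controls and at 9.20, 9.69 and 7.59 after freezing. These transcripts come from different assembled loci but were placed on the same span, and again the groups did not overlap for either. Control replicate 3 had 0 of the control transcript and 0.659 of the other.

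Gene model g4610, on chromosome 11 of set 1 at 2627260 to 2632602, was the only one of the 16 with the largest margins whose control transcript was also highest in control replicate 3. AcauleEVm009432t2 was at 5.77, 7.68 and 14.1 in control replicates 1, 2 and 3 and at 2.49, 2.43 and 2.24 after freezing. AcauleEVm009432t1 was at 2.03, 1.47 and 0 in the 3 controls and at 4.64, 5.48 and 7.61 after freezing. All 3 controls lay above all 3 frozen libraries for the control transcript and below them for the freezing transcript. Against control replicates 1 and 2 the summed level was almost the same after freezing, with a log2 fold change of 0.03. In control replicate 3 it was 14.1, above every frozen library (8.40, 9.40 and 10.6).

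**Figure D2:**
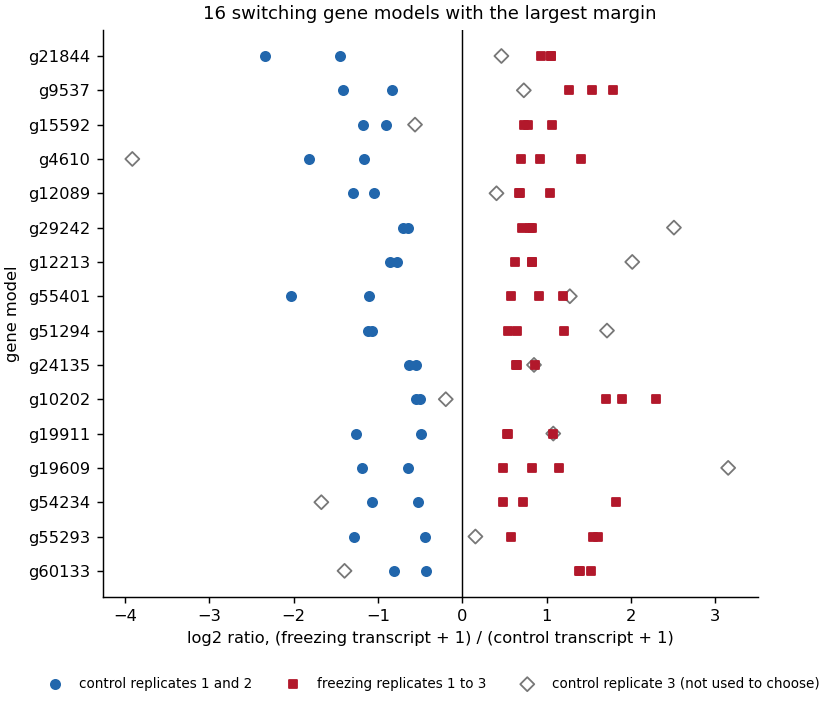
Log2 ratio of (freezing transcript + 1) over (control transcript + 1) on the x axis for the 16 switching gene models with the largest margin, one row each. Blue circles are control replicates 1 and 2, red squares the 3 freezing replicates, and open diamonds control replicate 3. The diamond lies below 0, the side of the other controls, in 5 of the 16 rows. For g10202 and g15592 among them both transcripts were near 0 there (0.145 against 0, and 0.672 against 0.134). Only in g4610 was the control transcript the highest of the gene model in control replicate 3.

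These 3 gene models and g38202 were the only ones in which the control transcript was at least 2-fold lower and the freezing transcript at least 2-fold higher, on the means of level + 1. Named here after its values were seen, g38202 lies at 5403425 to 5407187 on chromosome 5 of set 1. Its control transcript AcauleEVm004341t10 was at 11.6 and 14.2 in control replicates 1 and 2 and at 1.08, 2.75 and 10.1 after freezing, so that freezing replicate 3 was close to the controls. AcauleEVm004341t14 was at 4.06 and 0.378 in these controls and at 8.72, 7.76 and 12.3 after freezing. In control replicate 3 the control transcript of g38202 led, with 5.46 against 0.

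On the same means of level + 1, only the freezing transcript passed 2-fold in 37 gene models and only the control transcript in 23. In 103 (61.7%) neither did. Over all 87736 transcripts of the eligible gene models, 3.75% were at least 2-fold higher after freezing and 1.5% at least 2-fold lower. The control transcript was lower in all 3 frozen libraries than in both controls in 83 gene models, against 9.53% of all these transcripts, and the freezing transcript was higher in all 3 in 96, against 19.4%. In 36 gene models both held. The rule selects for these differences, so nothing is read from the higher shares.

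**Figure D3:**
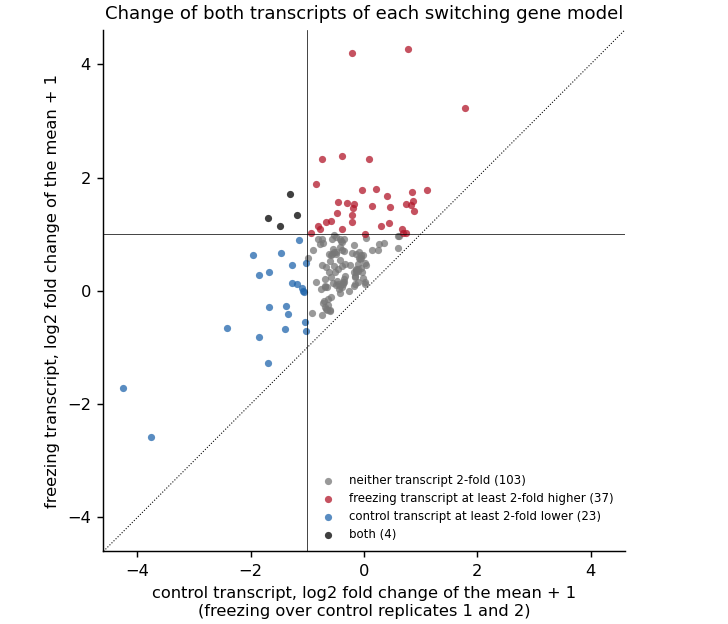
Each point is one of the 167 switching gene models, with the log2 fold change of the control transcript on the x axis and of the freezing transcript on the y axis (mean of 3 frozen libraries + 1 over mean of control replicates 1 and 2 + 1). Thin lines mark 2-fold changes and the dotted line equal change. Grey points, 103 of the 167, lie within 2-fold on both axes.

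Among gene models in which only the freezing transcript passed 2-fold, g15592 on chromosome 1 of set 1 (64941210 to 64947557) had the largest margin, 0.73. AcauleEVm013585t6 was at 2.64 and 2.32 in the controls and at 7.55, 5.74 and 7.77 after freezing. The control transcript AcauleEVm013585t4 was at 5.82 and 6.52 and then at 4.15, 2.21 and 4.11. Both share their end at 64947557, while the freezing transcript starts at 64941210 and the control transcript at 64941852. The groups did not overlap for either transcript, and both were near 0 in control replicate 3, at 0.134 and 0.672.

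Gene model g29242, on chromosome 3 of set 1 at 54503549 to 54506300, switched while its summed level was higher after freezing, at 175, 436 and 189 against 22.1 and 67.4 in control replicates 1 and 2 and 34.7 in control replicate 3. Both transcripts were higher, the freezing one by more. AcauleEVm020715t3 went from 13.9 and 41.3 to 66.3, 157 and 68.4, and AcauleEVm020715t2 from 8.20 and 26.1 to 109, 279 and 121. Within groups the ratio of the pair was steady, with an SD of 0.06 on the log2 scale against a switch size of 1.45. In control replicate 3, however, the freezing transcript led with 18.7 against 2.46.

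Gene model g40169, named here after its values were seen, lies on chromosome 5 of set 2 at 4842473 to 4845561 and has 2 transcripts. AcauleEVm008778t1 was at 5.25, 5.37 and 5.55 in the 3 controls and at 114, 141 and 107 after freezing. The control transcript AcauleEVm008778t2 was at 8.98, 5.50 and 2.995 in the controls and at 10.97, 15.5 and 13.0 after freezing. The control transcript thus led by little in control replicate 2 (margin 0.03), and did not lead in control replicate 3. Both transcripts were placed on the same span.

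The largest switch size, 4.38, was that of g54011 on chromosome 8 of set 2 (2526346 to 2535840), also named after its values were seen. Its freezing transcript AcauleEVm012641t2 is listed at 0 in all 3 controls and was at 12.2, 22.9 and 17.2 after freezing. The control transcript AcauleEVm006007t8 hardly differed, at 11.8, 10.8 and 15.4 in the controls and 8.78, 8.29 and 11.96 after freezing. The spans of the pair do not overlap, at 2526532 to 2529026 and 2529993 to 2535840, and the loci differ. It was the only gene model whose freezing transcript was listed at 0 in both controls used by the rule.

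Other gene models of the largest margins had a freezing transcript that was higher while the control transcript stayed near its level. In g55401 (chromosome 8 of set 2, 47778969 to 47794151) AcauleEVm007932t7 was at 0 and 2.49 in the controls and at 8.52, 12.5 and 9.60 after freezing, while AcauleEVm007932t3 was at 3.07 and 6.52 and at 3.16, 6.16 and 6.09. Control replicate 3 had 24.7 of the freezing transcript, more than any frozen library. In g19911 (chromosome 1 of set 2, 74060783 to 74065603) AcauleEVm018372t2 was at 4.89 and 3.07 and at 13.6, 10.7 and 10.4, and AcauleEVm018372t5 at 7.29 and 8.74 and at 9.10, 7.002 and 4.38. In control replicate 3 the freezing transcript of g19911 was at 12.1, within the range of the frozen libraries. Its share of the sum was not, as the summed level there was 62.3 and another transcript was highest. The freezing transcript held 19.4% of the sum in control replicate 3, against 24.6% and 15.7% in control replicates 1 and 2. After freezing it held 43.5%, 43.9% and 53.9%.

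Low levels limit a pair of the named gene models. In g54234 on chromosome 8 of set 2 (5077472 to 5082972) no transcript of the pair passed 5 in any library, and the control transcript AcauleEVm000924t3, at 2.20 and 2.36 in the controls, was lower in freezing replicate 1 only, at 0.383 against 2.68 and 2.59 in freezing replicates 2 and 3. Its freezing transcript AcauleEVm000924t5 was at 0.526 and 1.34 and then at 3.90, 4.15 and 4.94. In g51294 on chromosome 7 of set 2 (47723630 to 47729103) AcauleEVm003671t5 was at 4.27 and 3.73 and then at 1.30, 1.93 and 2.55, and AcauleEVm005551t2 at 1.51 and 1.18 and then at 4.29, 3.58 and 4.18. The latter groups did not overlap for either transcript. In control replicate 3, however, the freezing transcript of g51294 led, with 2.60 against 0.096. For g54234 another transcript was highest there, with 2.185 of the control and 0 of the freezing transcript.

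Both g55293 and g60133 are among the 23 gene models in which only the control transcript passed 2-fold on the means of level + 1. AcauleEVm010188t1 of g55293 (chromosome 8 of set 2, 46208286 to 46213399) was at 19.1 and 24.7 in the controls and at 8.27, 5.06 and 8.64 after freezing. AcauleEVm010188t2 was at 13.8 and 9.59 in the controls and at 12.8, 17.5 and 27.2 after freezing, with overlap between the groups. In g60133 (chromosome 9 of set 2, 51504717 to 51509792) AcauleEVm012698t1 was at 6.37 and 6.32 and then at 2.19, 1.77 and 3.01, and AcauleEVm012698t3 at 4.46 and 3.19 and then at 8.20, 6.29 and 9.48. Neither transcript of g60133 overlapped between these groups. On level + 1 the log2 fold changes were -1.14 for the control transcript and 0.90 for the freezing transcript. Without the added 1 the freezing transcript also passed 2-fold, with means of 3.825 and 7.99. In control replicate 3 the freezing transcript of g55293 led, with 6.30 against 5.55. For g60133 another transcript was highest there, with 7.35 of the control and 2.17 of the freezing transcript.

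In 3 further gene models of the largest margins neither transcript passed 2-fold on the means of level + 1. Without the added 1 both transcripts of g19609 did, with means of 5.86 and 2.90 for the control transcript and 2.61 and 5.83 for the freezing transcript. For g12213 on chromosome 12 of set 2 (45917004 to 45923762), AcauleEVm025353t1 was at 10.2 and 6.55 and then at 4.20, 4.09 and 5.78, and AcauleEVm025353t2 at 5.58 and 3.15 and then at 8.19, 8.07 and 9.45. For g19609 on chromosome 1 of set 2 (70769109 to 70777419), AcauleEVm015925t4 was at 6.80 and 4.91 and then at 2.34, 2.76 and 3.60, and AcauleEVm010796t2 at 2.43 and 2.80 and then at 6.398, 5.64 and 5.45. For g24135 on chromosome 2 of set 2 (27717327 to 27724852), AcauleEVm017595t6 was at 4.93 and 3.47 and then at 3.77, 2.06 and 1.79, and AcauleEVm017595t5 at 3.07 and 1.89 and then at 6.43, 3.80 and 4.08. The groups overlapped only for the control transcript of g24135. In control replicate 3 the freezing transcript was the higher of the pair in all 3 gene models, at 7.51, 8.38 and 0.804.

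For 4 loci a gene model on each chromosome set switched. Of the 167 switching gene models, 68 had an eligible gene model of the same assembled locus on the other chromosome set. For 8 of the 68 such a gene model switched as well. For 51 none switched and a stable one was present, and for 9 the highest transcript only varied within a group. Over all eligible gene models 1.21% switched. How often a stable gene model had a switching one on the other set was not counted. Nothing is therefore read from the share of 8 in 68. The 8 are 4 loci with 1 switching gene model on each set, and each pair lies on the same chromosome number. Locus AcauleEVm012210 also had another eligible gene model on set 1 that did not switch. How reads shared between such copies were assigned is not known, so both copies of a locus are not independent measurements.

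Locus AcauleEVm016273 on chromosome 12 had the largest margins of the 4. On set 2, in g12089 (44369353 to 44372373), AcauleEVm016273t11 was at 5.57 and 15.8 in the controls and at 1.74, 4.14 and 2.04 after freezing, and AcauleEVm016273t9 at 2.17 and 5.80 and then at 4.67, 7.18 and 3.89. On set 1, in g10202 (50782592 to 50785699), AcauleEVm016273t8 was at 7.73 and 19.7 in the controls and at 1.89, 4.24 and 2.20 after freezing, and AcauleEVm016273t7 at 5.18 and 13.1 and then at 8.45, 24.7 and 10.9. In both copies the control transcript was lower in all 3 frozen libraries, by 1.68 and 1.96 on the log2 scale, while the freezing transcript overlapped between the groups. Replicate 2 was the highest of its group for each of the 4 transcripts. In control replicate 3 the copy on set 1 was nearly silent, with a summed level of 1.04, and on set 2 the freezing transcript led with 4.99 against 3.52.

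Locus AcauleEVm016922 on chromosome 11 switched in g4985 on set 1 and in g6984 on set 2. In g6984 (8115878 to 8120228) AcauleEVm016922t1 was at 4.22, 7.10 and 11.0 in the 3 controls and at 4.18, 3.70 and 2.62 after freezing. AcauleEVm016922t10, whose span ends at 8117974 against 8120228 for the control transcript, was at 2.79, 1.90 and 1.24 in the controls and at 5.92, 5.26 and 4.69 after freezing. All 3 controls lay on one side and all 3 frozen libraries on the other for both transcripts. Locus AcauleEVm012210 on chromosome 1 switched in g13444 on set 1 and in g17364 on set 2. In g17364 (21060040 to 21073222) AcauleEVm012210t3 was at 6.36 and 6.29 and then at 1.28, 1.82 and 0, and AcauleEVm012210t5 at 4.64 and 2.43 and then at 3.43, 3.18 and 6.87, with overlap for the latter. In control replicate 3 the freezing transcript of g17364 led, with 1.455 against 0.537. Locus AcauleEVm014870 on chromosome 10 was the fourth, with g80 on set 1 and g2178 on set 2.

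The other switching copies, named here because they complete the 4 loci, were g4985, g13444, g80 and g2178. In g4985 (chromosome 11 of set 1, 6840700 to 6845040) AcauleEVm016922t7 was at 6.10 and 5.20 in control replicates 1 and 2 and at 1.89, 2.27 and 2.84 after freezing, and AcauleEVm016922t9 at 2.52 and 1.63 and then at 4.06, 3.26 and 3.47. In g13444 (chromosome 1 of set 1, 11139876 to 11151999) AcauleEVm012210t9 was at 3.37, 2.93 and 3.35 in the 3 controls and at 2.48, 2.21 and 1.15 after freezing, and AcauleEVm012210t10 at 2.60, 2.49 and 1.92 and then at 4.13, 4.55 and 5.45. All 3 controls and all 3 frozen libraries were apart for both transcripts of g13444, at low levels. For g4985, control replicate 3 had 0.995 of the control transcript, below every frozen library, and 0 of the freezing transcript. Another transcript of g4985 was highest there.

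On chromosome 10, the control transcripts of both copies were lower in all 3 frozen libraries while the freezing transcripts overlapped between the groups. AcauleEVm014870t9 of g80 (set 1, 1062430 to 1070985) was at 14.6 and 12.7 in control replicates 1 and 2 and at 5.85, 5.95 and 6.05 after freezing, and AcauleEVm014870t5 of g2178 (set 2, 907008 to 915371) at 6.38 and 4.90 and then at 3.38, 3.15 and 2.98. The freezing transcript of g80, AcauleEVm062435t1, carries another assembly number and was at 10.6 and 7.35 and then at 11.9, 7.27 and 7.69. That of g2178, AcauleEVm014870t2, was at 5.61 and 3.01 and then at 5.21, 6.85 and 6.11. In control replicate 3 the freezing transcript led in g80 (6.33 against 0.192) and the control transcript in g2178 (5.28 against 4.97).

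The most abundant switching gene models had narrow margins. In g37776 on chromosome 5 of set 1 (548644 to 550065), with a mean summed level of 1062, AcauleEVm021988t5 was at 439 and 421 in the controls and at 484, 331 and 440 after freezing. AcauleEVm021988t2 was at 367 and 420 and then at 500.4, 531 and 462. The pair was level in control replicate 2, with a margin under 0.01. In g52728 on chromosome 8 of set 1 (36500180 to 36501557) AcauleEVm016815t4 was at 78.0 and 263 and then at 45.4, 63.8 and 30.2, and AcauleEVm016815t6 at 75.8 and 219.9 and then at 82.0, 112 and 57.8. Its summed level was lower in all 3 frozen libraries, at 143, 212 and 124 against 228 and 736.

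In g6552 on chromosome 11 of set 2 (2882655 to 2886078) both transcripts were higher after freezing. AcauleEVm012274t1 was at 72.6 and 75.1 and then at 93.2, 139 and 109, and AcauleEVm012274t5 at 69.9 and 63.8 and then at 112, 151 and 134. The switch size was 0.37 (SD within groups 0.10). A wider exchange was seen in g16256 on chromosome 1 of set 1 (70988200 to 70990752), where AcauleEVm023301t4 was at 62.1, 42.0 and 69.8 in the 3 controls and at 172, 125 and 171 after freezing. The control transcript AcauleEVm023301t9 was at 71.1, 46.3 and 32.9 in the controls and at 33.3, 43.0 and 50.6 after freezing, with overlap between the groups.

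At the edges of the rule, the lowest sums among the members were those of g57548 (5.06 in its lowest library) and g53718 (5.21). In g57548 AcauleEVm002684t11 was at 6.37 and 4.11 and then at 2.99, 0.777 and 2.04, and AcauleEVm002684t9 at 4.08 and 3.13 and then at 3.46, 3.66 and 4.21. In g53718 AcauleEVm013184t2 was at 4.15 and 4.37 and then at 2.66, 4.44 and 1.63, and AcauleEVm013184t1 at 2.82 and 3.58 and then at 4.70, 10.1 and 3.58. Just outside the minimum were g25247 (4.98 in its lowest library), where AcauleEVm021913t2 gave way to AcauleEVm021913t3, and g24303 (also 4.98), where AcauleEVm005848t6 gave way to AcauleEVm005837t7. The smallest margin, 0.001, was that of g12919, where freezing replicate 1 had 5.89 of each transcript of the pair to 3 digits.

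Control replicate 3 is the one control library that was not used to choose the switches. Because it was unlike the other 5 libraries, it cannot decide whether the control side of a switch holds. The control transcript was highest there in 47 of the 167 gene models (28.1%), the freezing transcript in 46 (27.5%) and another transcript in 74 (44.3%). Between the pair alone, the control transcript was the higher in 82 (49.1%), the freezing transcript in 78 (46.7%), and 7 were equal. The control label of this library therefore went with the control transcript about as often as with the freezing transcript. The library also departed from the others where no switch had been seen, as the stable gene models kept their highest transcript in 5288 of 10605 cases (49.9%), and in 258 of 761 (33.9%) where the 2 highest were within 0.5 on the log2 scale.

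By chromosome set, the control transcript was highest in control replicate 3 in 20 of 74 switching gene models on set 1 (27.0%) and in 27 of 93 on set 2 (29.0%). The corresponding shares of stable gene models that kept their highest transcript were 43.9% and 55.3%. With a sum of 5 or more in control replicate 3, which 140 of the 167 had, the control transcript was highest in 39 (27.9%). The freezing transcript was listed at 0 in control replicate 3 in 35 gene models and the control transcript in 24, whereas only 3 gene models had either at 0 in control replicate 1 or 2. What sets this library apart was not tested.

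**Figure D4:**
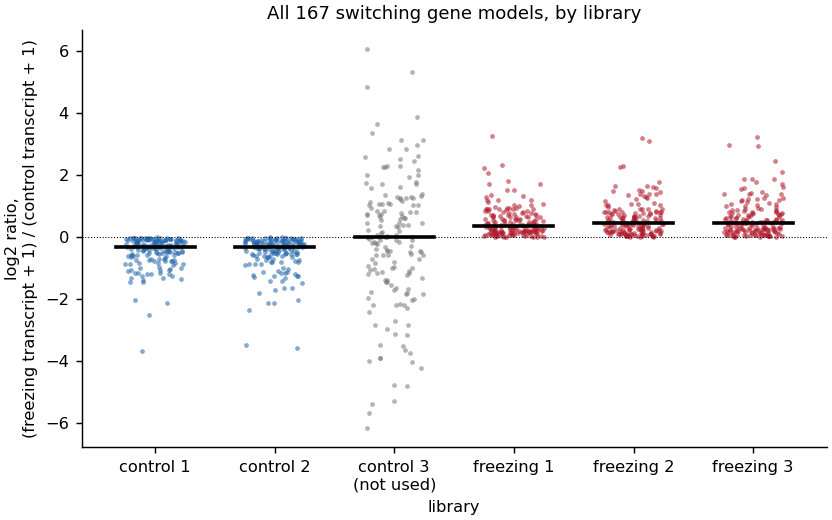
Log2 ratio of (freezing transcript + 1) over (control transcript + 1) on the y axis for the 167 switching gene models in each of the 6 libraries on the x axis, with black bars at the medians. By the rule all points of control replicates 1 and 2 lie below 0 and all points of the frozen libraries above it. In control replicate 3, which the rule did not use, the points spread from -6.17 to 6.07 around a median of 0.

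Among members whose control transcript led in all 3 controls, g458 on chromosome 10 of set 1 (5314724 to 5319005) had the largest margin after g4610, g54011 and g6984; it is named here after its values were seen. AcauleEVm017728t2 was at 22.7, 16.3 and 49.9 in the controls and at 2.82, 2.48 and 3.21 after freezing. AcauleEVm017728t1 was at 8.01, 8.27 and 0 and then at 5.19, 4.51 and 4.604. The freezing transcript was not higher after freezing than in control replicates 1 and 2, and it led because the control transcript was lower in every frozen library. Its summed level was 33.4, 26.8 and 51.0 in the controls and 9.245, 7.905 and 8.86 after freezing.

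In most of the switching gene models the summed level was within 2-fold, but changes beyond 2-fold were more frequent than over all eligible ones. In 144 of the 167 (86.2%) the sum was within 2-fold (means of level + 1, freezing over control replicates 1 and 2). It was at least 2-fold higher in 16 (9.58%) and at least 2-fold lower in 7 (4.19%). Over the 13801 eligible gene models, 3.91% were at least 2-fold higher and 2.14% at least 2-fold lower. The difference between these shares was not tested. The median log2 fold change of the sum was 0.10 over the switching gene models and 0.07 over all eligible ones. The lowest fold changes of the sum were those of g29370 and g24508, named here after their values were seen. In g29370 (chromosome 3 of set 2, 1004868 to 1008451) the sum was 89.7 and 257 in control replicates 1 and 2 and 10.8, 19.6 and 8.24 after freezing. AcauleEVm034688t3 there was at 53.4 and 148.9 and then at 3.93, 6.67 and 2.397, and AcauleEVm071686t1, on a span that does not overlap it, at 11.6 and 33.3 and then at 4.55, 10.01 and 3.86. Both were lower, and the change of rank came from the larger difference of the control transcript. In g24508 (chromosome 2 of set 2, 31576319 to 31577735) AcauleEVm015301t2 was at 101 and 312 and then at 15.4, 16.5 and 11.1, and AcauleEVm015302t1 at 79.6 and 218 and then at 28.9, 26.7 and 16.7. In control replicate 3 the sum of g24508 was 24.95, below every frozen library, so the control libraries did not share its level. A higher sum with a switch was seen in g24923 (chromosome 2 of set 2, 35805027 to 35808948), also named after its values were seen, where AcauleEVm006134t4 was at 2.64 and 3.42 and then at 15.2, 29.4 and 15.0 and AcauleEVm006134t3 at 4.16 and 4.10 and then at 2.84, 2.33 and 3.63. Its freezing transcript was at 9.20 in control replicate 3, between the other controls and the frozen libraries. The switching gene models together held between 0.491% and 0.678% of the signal of a library.

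Over the whole table and all 6 libraries, limma called the sums of 13 of 29050 gene models as higher after freezing (0.0448%) and 22 as lower (0.0757%), at an adjusted p under 0.05. All 167 switching gene models were tested, and 1 of them was called, g40169, as higher (log2 fold change 3.48, SE 0.26). Without control replicate 3 the calls were 189 higher (0.651%) and 153 lower (0.527%). They included g40169 and g19545 as higher and g458 as lower. Without any one of the other 5 libraries limma called 0 gene models, g40169 included, with 1984 to 3647 at an unadjusted p under 0.05. This contrast is the one that chose the gene models, so nothing is read from the members' counts.

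Transcript usage was fitted in the same way, as the log2 ratio of a transcript to the rest of its gene model. With all 6 libraries limma called 0 of 107778 transcripts (0% in each direction), and 8298 had an unadjusted p under 0.05 (7.7%). Of the 334 transcripts of the switching pairs 0 were called, and 74 had an unadjusted p under 0.05. When control replicate 3 was left out, 344 transcripts were called as higher (0.319%) and 286 as lower (0.265%). Among these were 18 of the 334, 9 in each direction, in 12 gene models. In 6 of the 12, both transcripts of the pair were called: g10202, g12089, g15592, g21844, g40169 and g9537. Of the others, 1 transcript was called in each of g15723, g29370, g4610, g51294, g54011 and g60133. The rule used 5 of the same libraries, so these calls describe the same values and are no independent evidence of the switches.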

How the data were processed

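RNA of S. acaule shoot explants was measured in 6 libraries, 3 control and 3 freezing. The submitters' processing notes name Trimmomatic 0.39 and, without its role, DESeq2. Which aligner, assembler, abundance program and genome build were used is not given in the sources used here. Per transcript, the authors deposited 1 signal value per library, which from the values has the form of TPM divided by a library factor (library totals from 912356 to 1052633). The authors also deposited a placement table without a header, with a score per transcript and gene model whose meaning is not stated. Depth cannot be had from such values, and no counting interval was computed. All value columns were matched to samples by name, and 0 were left over.

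Of 175634 placed transcripts, 169030 listed 1 gene model and were kept, and 6604 listed several and were left out. The kept transcripts gave 38574 gene models, 30940 of them with 2 or more transcripts and 13801 with a sum of at least 5 in each of the 5 libraries. Of these, 167 switched, 10605 were stable and 3029 were neither. A tie for the highest transcript left a gene model out. For 197 transcripts with several spans the outer bounds were used.

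Gene model sums that reached 1 in at least 3 libraries, and usage of transcripts whose gene model sum reached 5 in at least 3, were fitted with limma 3.58.1 in R 4.3.3. The scale was log2(value + 1), which understates the change of low levels, with a variance trend, two-sided tests and Benjamini-Hochberg adjustment at 0.05. The selection step was tested on simulated levels with far less noise than these data. The limma steps were tested on simulated data with large changes, placed in gene models or transcripts of below-median variance. These runs check the code and do not tell what share of real changes would be found. The p-values rest on the spread among these 6 libraries, which may be technical. Tables were read with pandas 2.3.3 in Python 3.11.15.

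Named gene models are the 16 with the largest margin, the 4 others with the highest mean sum, those at the edges of the rule and the first 4 by margin that switched on both chromosome sets. Others are marked as named after their values were seen. The gene models, lists and rules were chosen with earlier results of these data known.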

Additional observations from a re-analysis of the deposited data

How the results depend on the processing

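The 167 switching gene models became 349 with a minimum sum of 1, 94 with 10, 405 with 5 summed over the 5 libraries, 67 with placement scores above 3 only, 39 with control replicate 3 in the rule and 0 with a 2-fold margin on level + 1. With a library left out there were 240 to 476. The 47 with the control transcript highest in control replicate 3 became 103, 29, 122 and 16 under the first 4 of these, and 82 when compared with the freezing transcript only. With a library left out they were 71 to 135. As a share of the switching gene models these were 23.9% to 33.1%, apart from the comparison within the pair. The 35 gene models called by limma were 20 without a filter, 12 at a minimum of 10, 19 when the pseudocount was 0.1 and 3584 with array weights, and between 0 and 342 when a library was dropped. The 0 usage calls became 8459 with array weights, which were computed from the same libraries, and were between 0 and 630 when a library was dropped. The causes of these shifts were not tested.

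With a replicate block limma called 0 gene model sums (unadjusted p under 0.05 for 3776, and for 3587 without the block) and 0 usage values (7523 and 8298). Whether the numbers pair the libraries is not known, since same-numbered deviations correlated at 0.329, 0.273 and 0.0694. Every control correlated best with the freezing library of its own number, a hint from the data and not from the design.

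The switch sizes of the 25 named gene models kept their sign with other pseudocounts and with a library left out. Their values depended on the pseudocount: 15 moved by more than the SD within groups with 0.1, and 19 with 5. With a library left out, 10 values moved by more than this SD and 115 did not. With control replicate 3 averaged in, 2 of the 25 gene models reversed, g6552 to -0.45 and g37776 to -0.17, and 16 others moved by more than the SD within groups. Depth is unknown, and levels near 1 cannot be given a counting error.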
